A study of Homo sapiens with 40 samples.

Results

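One-way GC-rich promoters are here H3K27ac peaks on GC-rich DNA near annotated protein-coding start sites, with no close pair of divergent coding starts. The direction of transcription itself was not measured. H3K27ac at 9014 such peaks was compared between senescent and non-senescent EndoC-βH3 cells. These peaks are called members here. They were chosen by position and sequence, without use of the fold changes, from the 51489 H3K27ac peaks of the authors' deposited table. The enhancer lists used in the choice rest, per the study, on overlapping H3K27ac and H3K4me1 signals in these cells, so the choice was not free of the mark itself. A peak was kept when it was under 10 kb wide, overlapped a window of 2 kb on either side of a protein-coding start site (GENCODE 44, hg38), lay outside both deposited enhancer lists and had a GC content of at least 50% in its central 1 kb. It also had to avoid the interval between 2 divergent protein-coding start sites at most 1 kb apart. The peaks overlapped the windows of 8877 of 19663 protein-coding genes (45.1%), and 8408 of them contained a start site.

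EndoC-βH3 is a human pancreatic beta-cell line, labelled as wild type, that carries an immortalizing transgene and a tamoxifen-activated Cre recombinase able to remove it. Senescent cells had been treated with 4-hydroxytamoxifen for 3 weeks, and non-senescent cells, which carry the same transgenes, had not. Chromatin immunoprecipitation sequencing (ChIP-seq) of H3K27ac was done in 3 libraries per state, among 40 libraries that also covered CTCF, Rb, H3K4me1 and matched inputs. All libraries come from 1 cell line, and loss of the transgene and senescence were brought about by the same treatment, so their parts cannot be told apart. The labels do not say that replicates were separate cultures, so p-values may measure technical spread alone.

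H3K27ac, the acetylation of lysine 27 on histone H3, marks nucleosomes beside active start sites and is written by the acetyltransferases p300 and CBP. GC-rich promoters, many of them CpG islands, serve most broadly expressed genes and also many cell-cycle genes. In resting cells the DREAM complex, built on the Rb relatives p107 and p130, holds cell-cycle promoters silent through E2F sites and through the cell cycle homology region (CHR), while NF-Y activates many of them through CCAAT boxes. In senescent cells p53, Rb and cyclin-dependent kinase inhibitors keep division arrested.

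The DNA of 4 promoters that lost H3K27ac is shown first, picked from the named genes because words for these factors stand in it. They illustrate the words and do not stand for all lost members. In the longer window searched below, 10.3% of lost members hold an E2F word, 12.5% a CHR word and 35.8% a CCAAT box. Each run is 170 bases before to 30 bases after the RefSeq start site (GRCh38.p14), 5′ to 3′ on the gene's strand. Capitals mark, on either strand, CCAAT, the GC box GGGCGG, the CHR word TTTGAA, the TATA box TATAAA, the ETS word CCGGAAGT and the E2F words TTTCCCGC, TTTCGCGC, TTTGGCGC and TTTGCCGC, and neighbouring words can share bases. MKI67, the proliferation marker Ki-67, lies at chr10:128126394-128126593 (minus strand), and TOP2A, the topoisomerase that untangles replicated chromosomes, at chr17:40417867-40418066 (minus strand). MCM6, a subunit of the replicative helicase, lies at chr2:135876414-135876613 (minus strand), and RBL1, which encodes p107, at chr20:37095968-37096167 (minus strand).
MKI67: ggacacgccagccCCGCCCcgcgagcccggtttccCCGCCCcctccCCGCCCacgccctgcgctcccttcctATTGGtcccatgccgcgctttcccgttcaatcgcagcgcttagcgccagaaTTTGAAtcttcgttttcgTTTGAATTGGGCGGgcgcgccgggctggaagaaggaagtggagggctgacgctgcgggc
TOP2A: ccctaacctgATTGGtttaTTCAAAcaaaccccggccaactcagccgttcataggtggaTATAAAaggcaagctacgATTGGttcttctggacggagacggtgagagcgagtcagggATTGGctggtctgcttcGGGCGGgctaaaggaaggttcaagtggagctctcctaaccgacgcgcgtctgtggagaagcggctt
MCM6: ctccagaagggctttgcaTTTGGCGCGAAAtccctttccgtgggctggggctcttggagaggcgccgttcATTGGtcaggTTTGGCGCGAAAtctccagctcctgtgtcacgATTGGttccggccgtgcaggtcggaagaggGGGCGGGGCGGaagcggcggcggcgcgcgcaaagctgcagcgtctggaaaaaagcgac
RBL1: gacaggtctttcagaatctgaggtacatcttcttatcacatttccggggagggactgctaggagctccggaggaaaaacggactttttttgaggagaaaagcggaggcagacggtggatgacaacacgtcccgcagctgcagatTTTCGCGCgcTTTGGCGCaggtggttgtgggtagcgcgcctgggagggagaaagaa
The MKI67 run holds 2 CHR words, which begin 47 and 29 bases before the start, and 2 CCAAT boxes. TOP2A has 3 CCAAT boxes and 1 CHR word. MCM6 has 4 E2F words, in pairs that share bases, with the members of a pair on opposite strands. RBL1 has 2 E2F words, 26 and 16 bases before the start, and none of the other marked words.

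The next runs are from promoters that gained H3K27ac, also picked from the named genes. Differences between these runs and those above follow from the choice and are not a result. CALY encodes calcyon, a vesicle protein of neurons (chr10:133336867-133337066 (minus strand)), KNDC1 a guanine nucleotide exchange factor (chr10:133160049-133160248 (plus strand)) and ABCA1 a transporter that exports cholesterol (chr9:104928126-104928325 (minus strand)). SPATA18 is a p53 target that acts in mitochondrial quality control (chr4:52051134-52051333 (plus strand)).
CALY: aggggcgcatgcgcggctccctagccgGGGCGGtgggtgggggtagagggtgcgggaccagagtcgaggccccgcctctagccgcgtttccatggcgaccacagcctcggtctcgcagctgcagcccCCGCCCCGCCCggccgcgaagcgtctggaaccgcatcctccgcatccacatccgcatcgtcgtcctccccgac
KNDC1: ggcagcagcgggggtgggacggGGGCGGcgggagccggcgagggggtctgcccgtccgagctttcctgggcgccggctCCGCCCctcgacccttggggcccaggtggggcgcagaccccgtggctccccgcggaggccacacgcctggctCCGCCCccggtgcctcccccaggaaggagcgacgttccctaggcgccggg
ABCA1: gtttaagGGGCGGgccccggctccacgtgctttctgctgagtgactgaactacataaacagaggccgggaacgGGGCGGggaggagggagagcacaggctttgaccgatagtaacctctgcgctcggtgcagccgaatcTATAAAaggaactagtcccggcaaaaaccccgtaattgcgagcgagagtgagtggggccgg
SPATA18: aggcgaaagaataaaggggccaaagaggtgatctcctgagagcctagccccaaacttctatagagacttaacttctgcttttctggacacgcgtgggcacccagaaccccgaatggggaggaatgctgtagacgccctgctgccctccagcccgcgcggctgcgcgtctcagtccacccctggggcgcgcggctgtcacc
CALY and KNDC1 each hold 3 GC boxes and none of the other marked words. ABCA1 holds 2 GC boxes and a TATA box that begins 31 bases before the start. None of the marked words stands in the SPATA18 run, which says only that these letters are not in this window.

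The deposited tables give, for each peak, 1 mean count over all libraries and 1 fold change, with no values per library. Summed over peaks, the mean normalized counts came to 19239499, of which 28.2% lay in one-way GC-rich promoters. Because the normalization centres the fold changes on the typical peak, a rise or fall of the mark across the whole genome cannot be seen. Of 18 beta-cell markers, 18 had an H3K27ac peak at a promoter, with the lowest mean count at MAFA (43.6 normalized counts). None of 6 endothelial markers had such a peak, nor had 7 of 8 fibroblast markers, and the peak at the remaining one, ACTA2, had 19.2 normalized counts. Peaks stood at 9 of 11 markers of other islet cells, with GCG and PPY absent, at 3 of 12 acinar and duct markers (CPA1, KRT19 and MUC1) and at 2 of 7 immune markers (CD68 and AIF1). Of the changed members, PCSK1 belongs to the beta-cell list and GHRL, SST, HHEX, KRT19 and AIF1 to the others, and the part of other cell types was not tested.

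To ask which of these promoters changed in senescence, peaks were called gained or lost where the fold exceeded 1.5 and the adjusted p in the authors' deposited DESeq2 result was below 0.05. Of the 9014 peaks, 282 were gained and 997 were lost, 14.2% in all, against 22.6% of all H3K27ac peaks. Gains made up 3.13% of the promoters, against 9.47% of all peaks, and losses 11.1%, against 13.1%. All peaks include 17156 in listed enhancers, of which 33.3% changed. The rule leaves these out of the members, so the contrasts with all peaks depend in part on the rule. Losses were 78.0% of the changed promoters and 58.1% of all changed peaks. The median log2 fold change was 0.012, with an interquartile range from -0.27 to 0.21, and the median over all peaks was 0.0075. Within 0.2 of zero lay 3992 members (44.3%). This predominance of loss belongs to the larger changes. With no limit on the fold, 1851 members were higher and 1857 were lower in senescent cells. Above a fold change of 2, 58 were gained and 432 were lost, and under a test against a fold change of 1.5, 42 and 239.

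**Figure D1:**
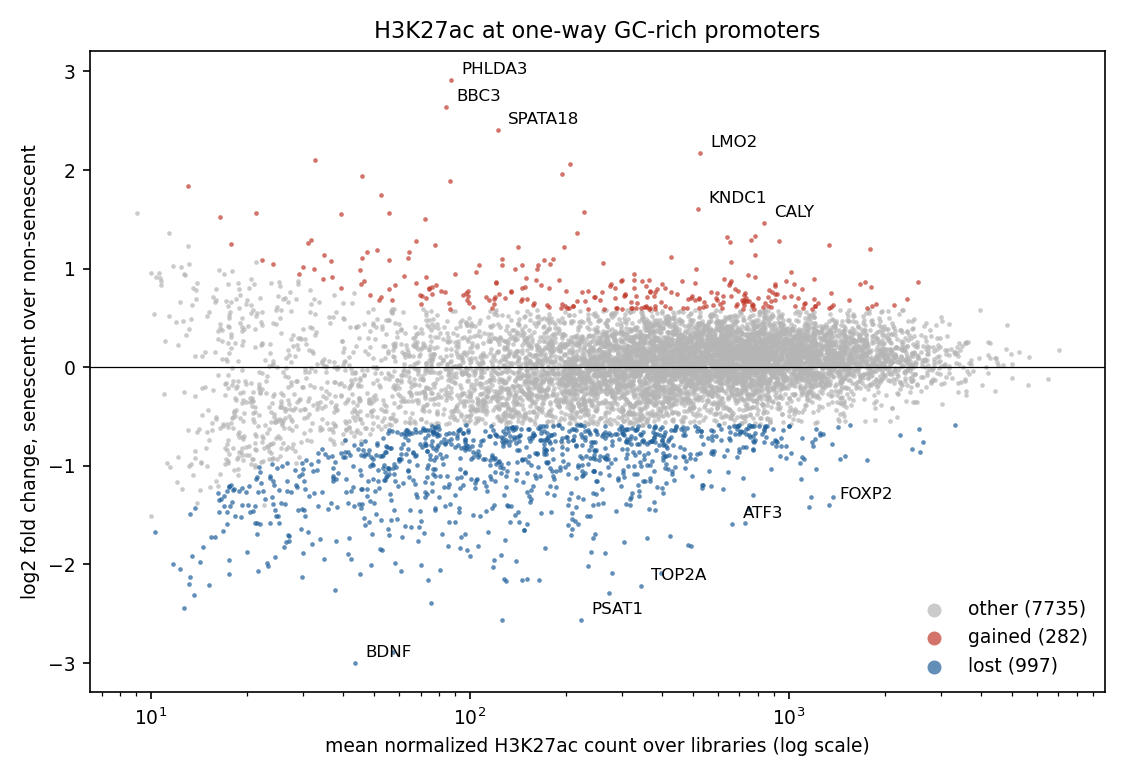
H3K27ac at the 9014 one-way GC-rich promoter peaks, with the authors' mean normalized count on a log horizontal axis and the deposited log2 fold change, senescent over non-senescent, on the vertical axis. Each point is a peak, coloured as gained (282), lost (997) or neither (7735). Losses spread over the lower counts, and the strongest gains, PHLDA3, BBC3 and SPATA18, have mean counts of 87.0, 84.3 and 122.

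The nearest classes of promoter differed in their shares, which are given as a description. At 1114 GC-rich promoters with divergent coding starts, 11 peaks were gained and 54 lost, 5.83% in all, and the median log2 fold change was 0.054. At 2309 GC-poor promoters, 172 were gained and 169 lost, so that losses were 49.6% of changes there. At the lower limit of GC content, 231 members of 50% to under 51% had 12 gains and 23 losses, and 177 peaks of 49% to under 50% had 11 and 15. At the limit of width, 31 members of 9 kb to under 10 kb had 1 gain and 1 loss, and 33 promoter peaks of 10 kb to under 11 kb had none. Of 57 members with divergent starts over 1 kb and at most 2 kb apart, just outside the limit on divergent pairs, 0 were gained and 5 lost.

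Losses were concentrated where the mark was weak. The median mean count was 139 in lost promoters, 312 in gained ones and 474 in the others, and the median widths were 1783, 2487 and 2650 bp. Among 788 members under 50 normalized counts, 23.6% were lost, and the median log2 fold change was -0.44. At 50 to 100 counts 32.2% were lost, at 100 to 300 counts 16.2%, at 300 to 1000 counts 6.09%, and among 1659 members of 1000 counts or more 1.87%, where the median was 0.10. Over all peaks the matching shares were 9.59%, 20.7%, 19.4%, 10.7% and 3.72%. The rank correlation of log2 fold change with mean count across the members was 0.30 (n = 9014), and 0.022 over all 51489 peaks. These points share libraries, and the error also moved with the count, with a median standard error of 0.41 in the lowest class and 0.074 in the highest.

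The gained share varied with CpG content and position in the members much as it did over all H3K27ac peaks. The ratio of observed to expected CpG dinucleotides, which is low where CpG has been depleted, had a median of 0.64 in gained, 0.76 in lost and 0.76 in other promoters. Of 915 members with a ratio under 0.4, 8.85% were gained and 9.62% lost, against 11.7% and 13.6% of all peaks in that class. In 3583 members of 0.8 or more, 2.15% were gained and 10.5% lost, against 1.94% and 10.3% of all peaks. Of 7303 members centred within 500 bp of the nearest start, 2.51% were gained, against 9.36% of 171 centred over 1.5 kb upstream and 11.5% of 269 centred over 1.5 kb downstream. Over all peaks in the same classes the gained shares were 2.93%, 10.6% and 10.4%. The lost shares in the same classes were 11%, 12.3% and 12.3% in the members and 10.2%, 11.7% and 7.76% over all peaks. By central GC content, the lost share of members was 8.83% at 50% to 55%, 13.0% at 65% to 70% and 12.4% at 75% or more. Over all peaks in these classes it was 13.3%, 13.9% and 12.6%. Members centred over 1.5 kb away also had fewer counts (medians of 168 upstream and 198 downstream, against 399.5), and the part of these differences was not tested.

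**Figure D2:**
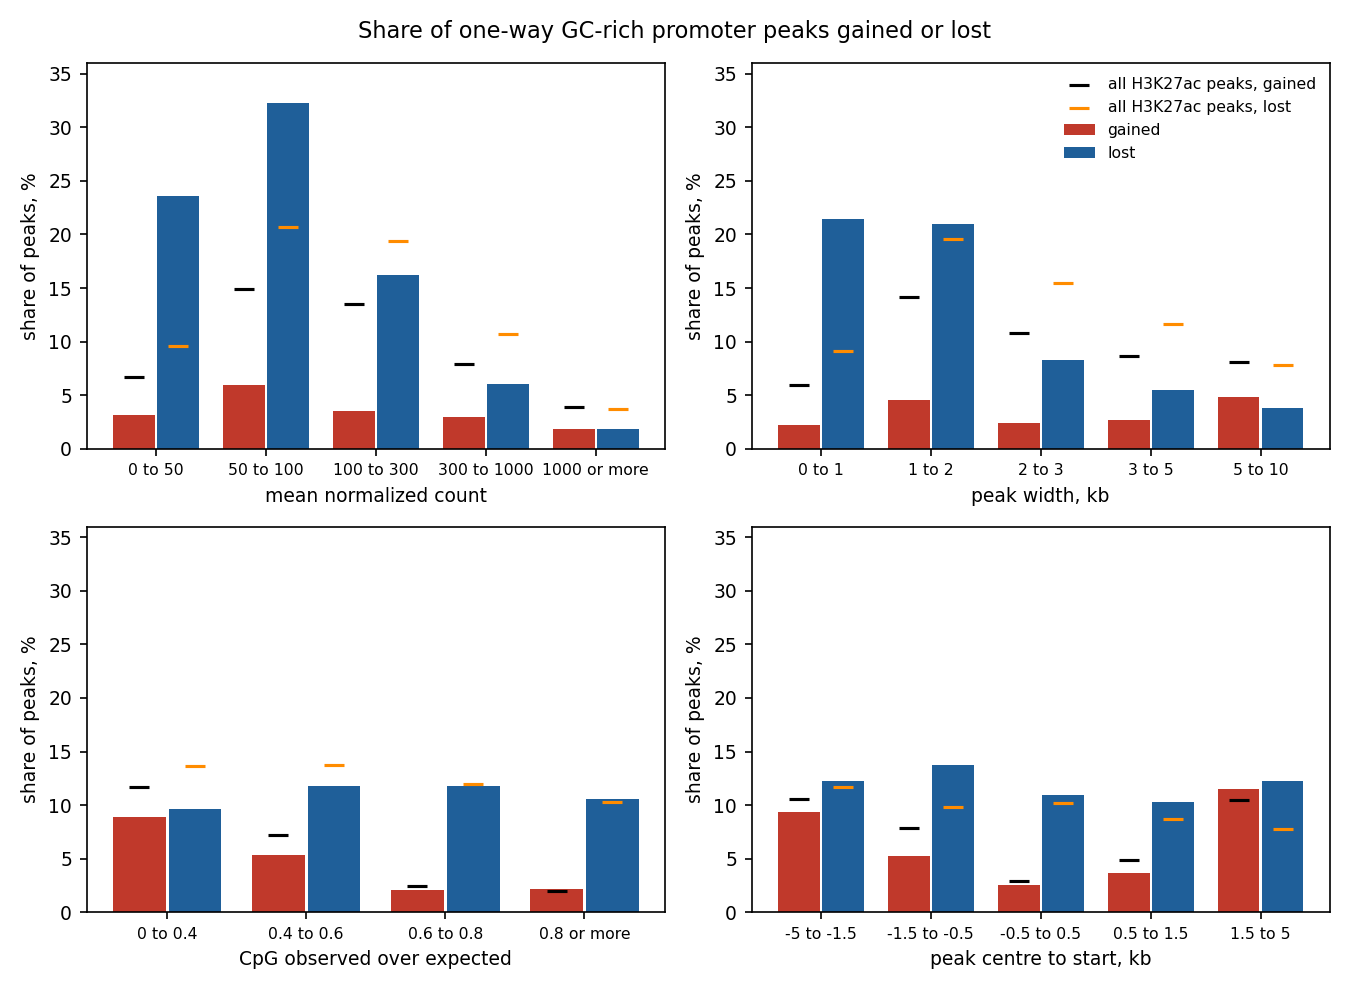
Share of one-way GC-rich promoter peaks that were gained or lost (vertical axes, percent of peaks), in classes of mean normalized count, peak width, CpG ratio and position of the peak centre, where negative distances lie upstream of the start. Bars are the promoter peaks and short lines are all H3K27ac peaks of the same class, within 5 kb of a start in the panel of position. Lost shares fall from 32.2% at 50 to 100 counts to 1.87% at 1000 or more, and gained shares at low CpG ratios and far from the start are higher in the promoter peaks and over all peaks alike.

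The levels of single promoters in each state were computed from the authors' mean and fold change, because no library values were given, and they carry no spread of their own. The gained promoter with the smallest adjusted p was that of LMO2, a LIM-domain cofactor of transcription known from blood cell development. Its level was 191 normalized counts in non-senescent and 862 in senescent cells, 2.17 on the log2 scale (standard error 0.11, adjusted p by DESeq2 3.35e-91). CALY rose from 445 to 1224 normalized counts, by 1.46 on the log2 scale (standard error 0.081, DESeq2 adjusted p = 1.49e-68). KNDC1 rose from 256 to 780 normalized counts, by 1.60 (standard error 0.11).

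The other gained promoters of the leading 10 belonged to genes of varied roles. TMOD1, which caps the slow-growing end of actin filaments, rose by 1.24 on the log2 scale, and MYO7B, an unconventional myosin, by 1.34. ABCA1 rose by 1.32, from 366 to 913 normalized counts. CBLN2, a secreted organizer of synapses, rose by 1.27, SYNDIG1L by 1.29, ZNF853, a zinc finger gene, by 1.29 and KLHDC8B, a kelch-domain gene, by 1.20. Their standard errors were between 0.073 and 0.098. The peaks at TMOD1, ZNF853, KLHDC8B, SYNDIG1L and MYO7B had CpG ratios of 0.081, 0.27, 0.13, 0.15 and 0.32, below the lower quartile of all members (0.64). At TMOD1 and SYNDIG1L the peak centre lay 2299 and 2576 bp downstream of the nearest start.

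The lost promoter with the smallest adjusted p was that of FOXP2, a forkhead transcription factor. Its level was 1940 normalized counts in non-senescent and 735 in senescent cells, -1.40 on the log2 scale (standard error 0.077, adjusted p by DESeq2 2.36e-71). TOP2A fell from 565 to 121 normalized counts (-2.22, standard error 0.12, DESeq2 adjusted p = 6.08e-69). MKI67 fell from 452 to 92.3 (-2.29, standard error 0.14) and CKAP2L, a protein of the mitotic spindle, from 766 to 217 (-1.82, standard error 0.11). All 3 serve cell division. PSAT1, an enzyme of serine synthesis, fell from 382 to 64.7 normalized counts (-2.56, standard error 0.16, DESeq2 adjusted p = 2.37e-54).

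Genes of islet and stress biology were also among the leading losses. PCSK1, the convertase that starts the processing of proinsulin, fell from 1684 to 632 normalized counts (-1.41, standard error 0.085, DESeq2 adjusted p = 8.18e-59). GHRL, the hormone ghrelin of epsilon cells, fell from 1091 to 366 (-1.58, standard error 0.095). ATF3, a transcription factor induced by stress, fell from 998 to 332 (-1.59, standard error 0.095). RBP3, known from the retina, and APOLD1 each fell by 1.32 on the log2 scale. Of the 20 promoters named here by smallest adjusted p, 20 passed a fold change of 2 and 20 passed the test against a fold change of 1.5.

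**Figure D3:**
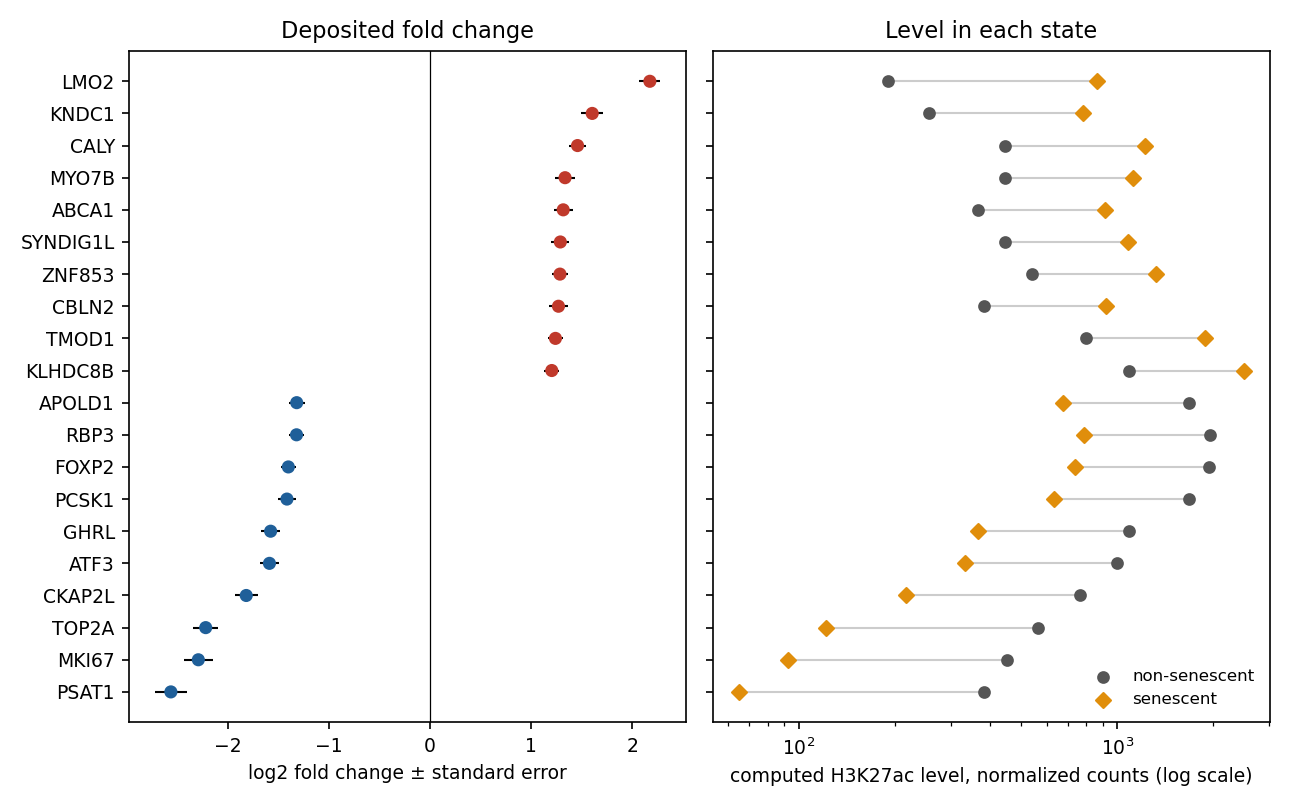
The 10 gained and 10 lost promoters with the smallest adjusted p. The left panel gives the deposited log2 fold change, senescent over non-senescent, with its standard error as a bar, and the right panel the level computed for each state in normalized counts on a log axis, with non-senescent cells as circles and senescent cells as diamonds. Fold changes run from -2.56 at PSAT1 to 2.17 at LMO2.

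The largest fold changes, looked up after the values were seen, lay at weak peaks. PHLDA3, a p53 target that inhibits AKT, went from 20.4 to 154 normalized counts (2.91, standard error 0.28), and BBC3, which encodes the death-promoting protein PUMA, from 23.3 to 145 (2.64, standard error 0.26). SPATA18 went from 38.8 to 206 (2.41, standard error 0.22). At the other end stood BDNF, a neurotrophin, from 77.5 to 9.68 (-3.00, standard error 0.37), and NDUFA4L2, a mitochondrial protein, from 101 to 13.6 (-2.89, standard error 0.31). INHBE, an activin subunit, went from 216 to 36.6 (-2.56, standard error 0.21).

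To see which pathways these promoters served, 29 gene lists were examined, with each gene represented by its member with the highest mean count. Over all genes with a member, 2.91% were gained and 10.8% lost. The 7 lists of cell proliferation held 204 genes, each counted once, of which 125 had a one-way GC-rich promoter peak. Of these 125, 78 were lost (62.4%) and 1 was gained, and the median log2 fold change was -0.83. Under the test against a fold change of 1.5, 45 were lost. Their median mean count was 349 and their median GC content 60.2%, against 456 and 63% over all genes with a member. The part of mean count in these losses was not tested.

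Spindle, chromosome condensation and cytokinesis genes fell most often, 22 of 27, with a median of -1.0. AURKB, the kinase of chromosome passenger complexes, fell from 553 to 166 normalized counts (-1.73, standard error 0.12), and PRC1, which bundles the central spindle, from 746 to 320 (-1.22, standard error 0.098). Kinetochore and spindle checkpoint genes fell in 13 of 21 cases, with a median of -0.84. HJURP, the chaperone that loads the centromeric histone, fell from 753 to 215 (-1.81, standard error 0.12), CENPF by 1.77 on the log2 scale, and the checkpoint kinases BUB1 and BUB1B by 1.38 and 1.64. No gene of either list had a log2 fold change above zero.

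Replication licensing and origin firing genes fell in 11 of 15 cases, with a median of -0.94. CDT1, which loads the helicase, fell from 544 to 211 normalized counts (-1.37, standard error 0.12), MCM6 from 481 to 195 (-1.30, standard error 0.12) and the kinase gene CDC7 from 986 to 556 (-0.83, standard error 0.086). Of 23 genes of the replication fork and nucleotide supply, 10 fell, among them TYMS, thymidylate synthase (-1.01), and DNMT1 and UHRF1, which copy DNA methylation (-0.90 and -1.57). Homologous recombination and Fanconi repair genes fell in 10 of 15 cases, BRCA1 by 0.83, its partner BARD1 by 0.87 and the helicase BRIP1 by 0.98. Of 9 cyclins, cyclin-dependent kinases and their phosphatases, 6 fell, with cyclin A2 (CCNA2) at -1.69, cyclin B1 (CCNB1) at -1.34 and CDC25A at -0.69.

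Of 15 E2F, Rb and DREAM genes, 6 fell and 1 rose, with a median of -0.45. RBL1 (p107) fell from 1503 to 685 normalized counts (-1.13, standard error 0.075), and its relative RBL2 (p130) rose from 510 to 874 (0.78, standard error 0.094), the only gain of the list, which passed neither a fold change of 2 nor the test against 1.5. E2F8, a repressor of the E2F family, fell from 127 to 24.2 (-2.39, standard error 0.27), and LIN9, a core protein of DREAM, from 260 to 106 (-1.30, standard error 0.16). RB1 itself stood at -0.15 and did not pass the threshold.

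The list of p53 targets and CDK inhibitors went mainly the other way, with 8 gained and 1 lost of 22, and a median of 0.32. Gains were 36.4% of the list, against 2.91% of all genes with a member, and losses 4.55%, against 10.8%. Besides PHLDA3, BBC3 and SPATA18, the gained genes were GDF15, a stress cytokine (1.04), GADD45A (0.65), and SESN1, TIGAR and CDKN1C, each at 0.60. CDKN2D, an inhibitor of CDK4 and CDK6, was lost, from 602 to 273 normalized counts (-1.14, standard error 0.12). MDM2, the ligase that degrades p53, stood at 0.16 and did not pass. Nor did the CDK inhibitor genes CDKN2A, at 0.25, and CDKN1B, at -0.46. Of the 8 gains, 3 passed the test against a fold change of 1.5.

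Housekeeping promoters lay close to no change. Over 5 lists (cytosolic ribosomal proteins, oxidative phosphorylation, proteasome subunits, tRNA synthetases with translation initiation, and RNA polymerase II with its general factors and Mediator) 161 genes had a member, 0 were gained and 2 were lost, and the median was 0.029. Of these genes, 156 lay within 0.5 of zero on the log2 scale. Their median mean count was 644, against 456 over all genes with a member, and the part of this difference was not tested. The losses were CARS1, a cysteinyl-tRNA synthetase (-0.73, standard error 0.16), and POLR2D, a subunit of RNA polymerase II (-0.63, standard error 0.15). Without a limit on the fold, 11 oxidative phosphorylation genes were higher and 3 lower, and 9 and 3 of the RNA polymerase II list. In the same setting RPS13 was lower by an adjusted p of 3.43e-09 (-0.58, standard error 0.092), just short of the threshold of 0.58 that a fold of 1.5 sets. Of 23 genes for histone acetylation writers, readers and erasers, 0 passed in either direction, and the highest, HDAC10, stood at 0.52.

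**Figure D4:**
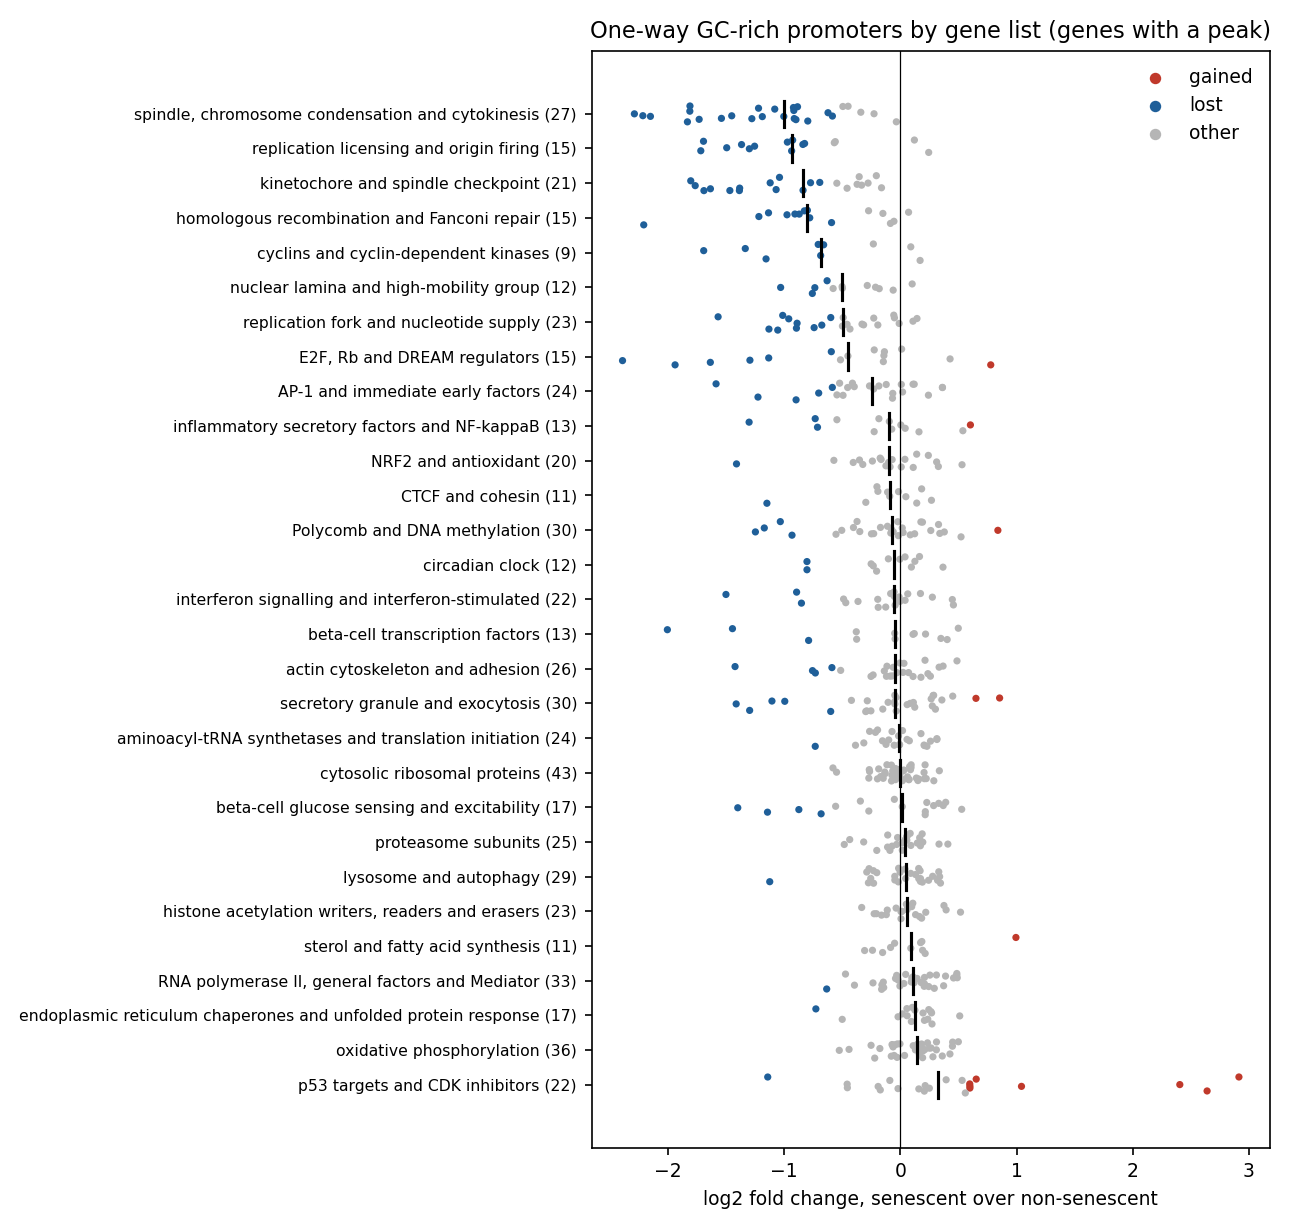
Deposited log2 fold change, senescent over non-senescent, of genes with a one-way GC-rich promoter peak, in rows by gene list with the number of genes in parentheses. Points are genes, coloured as gained, lost or other, and black bars are list medians. Proliferation lists have medians from -1.0 to -0.45, housekeeping lists lie within 0.15 of zero, and the p53 and CDK inhibitor list stands at 0.32.

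Among chromatin genes, 4 of 12 nuclear lamina and high-mobility group genes were lost (33.3%, against 10.8% of all genes with a member). TMPO, which encodes the lamin-binding protein LAP2, fell from 1636 to 800.4 normalized counts (-1.03, standard error 0.070), and HMGB2 fell by 0.74 on the log2 scale, HMGB3 by 0.63 and HMGA1 by 0.76. Of 30 Polycomb and DNA methylation genes, 4 were lost (13.3%, against 10.8% of all genes with a member) and 1 was gained (3.33%, against 2.91%). EZH2, the Polycomb methyltransferase, fell from 1177 to 575 (-1.03, standard error 0.082), and its accessory factor PHF19 by 0.93. BMI1, a Polycomb subunit known to repress CDKN2A, rose from 466 to 834 (0.84, standard error 0.090). CDKN2A itself stood at 0.25 (standard error 0.094) and did not pass the threshold. Of 11 CTCF and cohesin genes, 1 was lost (9.09%, against 10.8%). It was CDCA5, which encodes sororin, a protector of cohesion (-1.15, standard error 0.44, at a mean count of 24.2).

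Of 24 genes of AP-1 and immediate early factors, 5 were lost (20.8%, against 10.8% of all genes with a member) and 0 gained. The median was -0.25. Besides ATF3 these were BHLHE40, from 1947 to 1044 normalized counts (-0.90, standard error 0.068), NR4A1, from 561 to 240 (-1.23, standard error 0.11), KLF4 (-0.59) and MAFF (-0.70). In the list of endoplasmic reticulum chaperones and the unfolded protein response CEBPB alone was lost of 17 (-0.73, standard error 0.084), while 14 stood above zero, and in the NRF2 and antioxidant list ME1 alone of 20 (-1.41, standard error 0.32). Among 12 circadian clock genes HLF and CIART were lost, each at -0.80 (16.7% of the list, against 10.8% of all genes with a member). Sterol and fatty acid synthesis had 1 gain of 11, FDFT1, squalene synthase (0.99, standard error 0.36), and lysosome and autophagy had 1 loss of 29, CTSZ (-1.13, standard error 0.33). The single losses were 5.88% (chaperones), 5% (NRF2) and 3.45% (lysosome) of their lists, below 10.8%. The single gain was 9.09% of its list, against 2.91% of all genes with a member.

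Genes of beta-cell function that had a member gave mixed results, and the rule leaves many such genes out. Of 18 beta-cell markers, 3 were members. The peaks at INS, PDX1 and ISL1 were 10 kb or wider, and that at IAPP was at a GC-poor promoter. Members stood at 30 of 46 listed secretory genes, 17 of 38 of glucose sensing and excitability and 13 of 35 transcription factor genes. Of 30 secretory granule and exocytosis genes, 5 were lost (16.7%, against 10.8% of all genes with a member) and 2 gained (6.67%, against 2.91%). Besides PCSK1, the losses included CADPS2, which primes dense-core granules (-1.30, standard error 0.19), the granule protein VGF (-1.11, standard error 0.20) and CPLX1, a complexin (-0.996, standard error 0.19). The gains were the synaptotagmin SYT5 (0.85) and synapsin SYN1 (0.65). Of 17 genes of glucose sensing and excitability, 4 were lost (23.5%, against 10.8%). SLC16A1 and LDHA, a lactate transporter and lactate dehydrogenase that beta cells normally keep low, fell by 1.40 and 0.68 on the log2 scale, the potassium channel gene KCNK3 by 1.14 and PCK2 by 0.87. Of 13 transcription factor genes of the beta cell and its precursors, 3 were lost (23.1%, against 10.8%). Among them were SIX2 (-2.01, standard error 0.26) and GATA6 (-1.45). FOXO1, with 1584 and 2237 normalized counts, stood at 0.50 and did not pass.

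Of 55 interferon genes 22 had a member. Of these, 3 were lost (13.6%, against 10.8% of all genes with a member) and 0 were gained. The losses were the antiviral synthetase OAS3 (-1.50, standard error 0.22), the nuclease ISG20 (-0.85) and NLRC5, an activator of MHC class I (-0.89). Of 13 inflammatory secretory and NF-kappaB genes, 3 were lost (23.1%, against 10.8%) and 1 was gained (7.69%, against 2.91%). The chemokine genes CXCL1 and CXCL2 fell by 0.71 and 1.30 on the log2 scale, SERPINE2 by 0.73, and the kinase gene CHUK rose by 0.60. Of 26 actin cytoskeleton and adhesion genes, 4 were lost (15.4%, against 10.8% of all genes with a member). These were the tropomyosins TPM1 (-0.73), TPM2 (-1.42) and TPM4 (-0.76), and ACTG1 (-0.59, standard error 0.066), which lay just past the threshold.

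A further 3 lists were made after the values had been seen and serve as description alone. Of 9 genes of serine, glycine and folate one-carbon synthesis, 6 were lost. PHGDH, the first enzyme of serine synthesis, fell from 644 to 152 normalized counts (-2.09, standard error 0.14), SHMT2, which makes glycine in mitochondria, from 378 to 103 (-1.88, standard error 0.14), and MTHFD2 from 822 to 460 (-0.84, standard error 0.091). Of 18 targets of ATF4, the transcription factor of amino acid shortage, 9 were lost and 0 gained, among them EIF4EBP1, a repressor of translation (-2.08, standard error 0.14), the amino acid transporter subunit SLC3A2 (-0.67) and CHAC1 (-0.71). Of 5 linker histone H1 genes, H1-2 (-1.29, standard error 0.088) and H1-5 (-1.95, standard error 0.53) were lost.

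Most genes had 1 member, and 585 had 2 or more. At 8 genes 1 member was gained and another lost. At SEPTIN9, a septin of the cytoskeleton, a strong peak fell (-0.76, standard error 0.063, mean count 2634) and a weaker one rose (1.22, standard error 0.20, mean count 142). At TAFA5 a peak fell by 1.12 on the log2 scale (mean count 718) and another rose by 0.87 (mean count 346).

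The sequences shown above were set against all promoters next. A RefSeq promoter of 300 bases, from 250 before to 50 after the start, was matched to 6666 members, of which 180 were gained and 682 lost. Words were searched on both strands, and shares are descriptions. The E2F words stood in 10.3% of lost, 1.67% of gained and 4.98% of other members, and in 4.13% of 21574 promoters in all. Within the lost members, they stood in 22 of 67 promoters of proliferation-list genes (32.8%) and in 48 of 615 others (7.80%). Among 36 members of the proliferation lists that were not lost, 7 held an E2F word (19.4%).

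CHR stood in 35.8% of the lost proliferation promoters, 9.92% of other lost ones and 3.33% of gained ones. It stood in 6.86% of members neither gained nor lost and in 12.4% of all promoters. CCAAT boxes stood in 67.2% of the lost proliferation promoters, 32.4% of other lost ones and 29.4% of gained ones. The share was 34.6% in members neither gained nor lost and 34.8% in all promoters. In the proliferation promoters that were not lost, CHR stood in 16.7% and CCAAT in 50.0%. MKI67 and TOP2A, printed above, have both words. The ETS word stood in 6.67% of gained, 2.35% of lost and 8.80% of other members (5.4% of all promoters), and the YY1 word AAGATGGCG in 1.11%, 1.32% and 4.55% (2.45% of all).

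Members were chosen for GC content and the promoters in all were not. Contrasts of word shares with all promoters, here and above, therefore depend in part on the rule. GC boxes stood in 73.3% of gained, 78.2% of lost and 77.2% of other members, and in 56.8% of all promoters. TATA boxes stood in 3.33%, 5.28% and 3.69%, and in 9.46% of all. The cyclic AMP response element TGACGTCA stood in 5.56%, 2.35% and 3.51% (2.29% of all), the E-box CACGTG in 7.22%, 9.53% and 10.1% (8.35% of all), and the AP-1 word TGACTCA in 4.44%, 2.35% and 2.15% (4.04% of all). The antioxidant response word TGACNNNGC stood in 15.6%, 12.3% and 15.2% (13.8% of all).

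**Figure D5:**
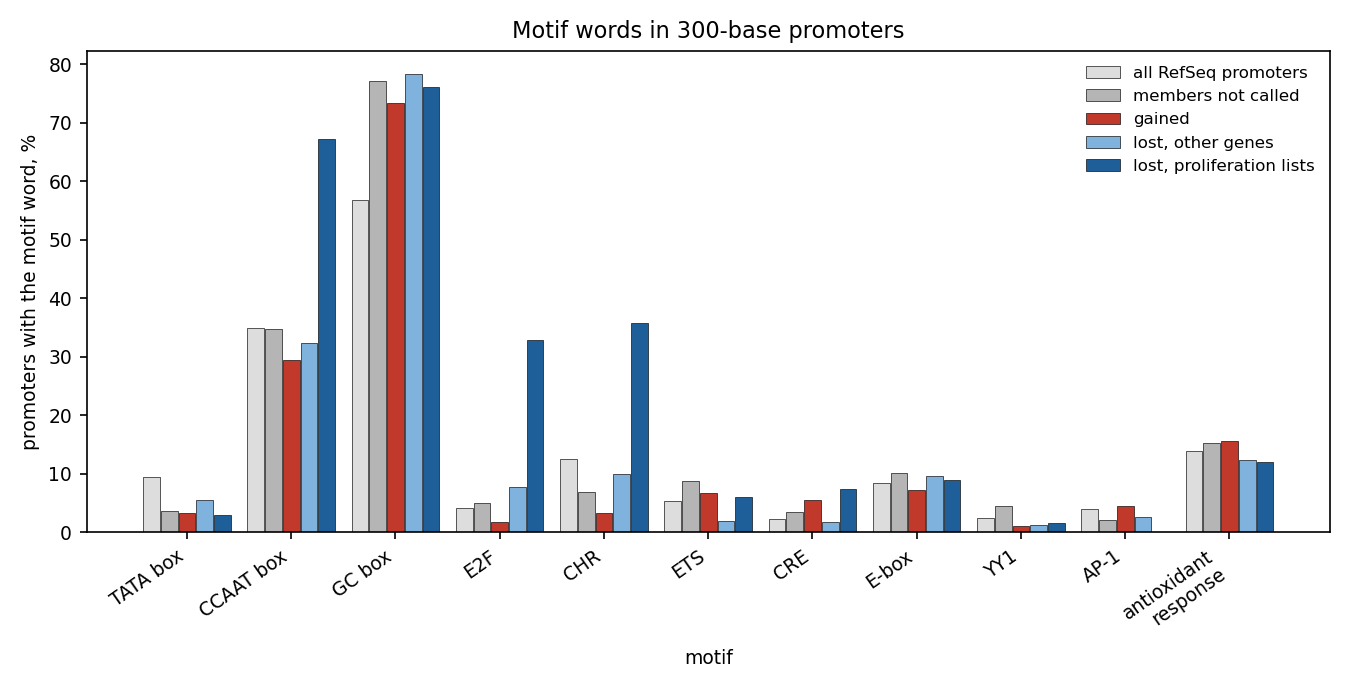
Share of promoters (vertical axis, percent) that hold each motif word within 300 bases around the start. Bars are all RefSeq promoters, members neither gained nor lost, gained members, lost members outside the proliferation lists and lost members of those lists. The E2F, CHR and CCAAT bars of lost proliferation promoters reach 32.8%, 35.8% and 67.2%.

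CTCF, the architectural protein that anchors chromatin loops, was compared at the same promoters to see whether its binding moved with H3K27ac. CTCF peaks were called with the study's thresholds for that protein, a fold above 1.5 with an adjusted p below 0.2, which 5.58% of all CTCF peaks met. The study counted only sites that hold the CTCF motif, and that filter was not applied here. Of the 9014 promoters, 4835 (53.6%) overlapped 5509 CTCF peaks, of which 16 were gained (0.29%, against 2.29% of all CTCF peaks) and 185 were lost (3.36%, against 3.28%). For 1202 of them the table gives no adjusted p, so they could not be called. The median CTCF log2 fold change was -0.19 in these peaks and -0.012 over all 51457. In the members it was -0.14 where the promoter's GC content was 50% to 60%, -0.19 at 60% to 70% and -0.23 above that. CTCF peaks in GC-rich promoters with divergent coding starts had a median of -0.18, with 0.63% gained and 3.65% lost. In GC-poor promoters the median was -0.096, with 0.56% gained and 2.26% lost. The part of GC content in the CTCF values was not tested.

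A lost CTCF peak stood at 40 of 550 promoters that lost H3K27ac and had CTCF (7.27%), at 6 of 141 gained ones (4.26%) and at 139 of 4144 others (3.35%). Across the 5509 pairs, which share libraries of each mark, the rank correlation of CTCF and H3K27ac log2 fold changes was 0.079. At SQOR, a mitochondrial sulfide oxidase, CTCF fell by 0.91 on the log2 scale (standard error 0.21, DESeq2 adjusted p = 0.0034) and H3K27ac by 0.73. CTCF at BLM, a DNA helicase (-1.96, standard error 0.48), at ATF3 (-0.70, standard error 0.19) and at PCSK1 (-0.93, standard error 0.27) was lost together with H3K27ac. At ARHGDIA CTCF fell (-0.71, standard error 0.16, DESeq2 adjusted p = 0.0024), while H3K27ac stood at -0.018. PCGF1, a Polycomb gene, had CTCF at -0.87 and H3K27ac at 0.085. The CTCF gains with the smallest adjusted p were at MRPL4 (0.84, standard error 0.22), GTF3C5 (0.98, standard error 0.27) and MAGEL2 (0.67, standard error 0.20), none of which changed H3K27ac past the threshold.

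Rb, the retinoblastoma protein that restrains E2F, had been mapped in 2 libraries per state and was deposited as a list of 2435 regions specific to senescent cells, with no values. Of the 9014 promoters, 195 (2.16%) overlapped one. Of these, 2 had gained and 11 had lost H3K27ac (5.64%, against 11.2% of promoters without a region), and the median log2 fold change was 0.059, against 0.0092. Promoters with a region had more H3K27ac, with a median of 1053 normalized counts against 404. PFKL, a phosphofructokinase, was gained (0.84, standard error 0.068), and CDT1, PRTFDC1, ACTG1 and CMTM8 were lost, at -1.37, -1.17, -0.59 and -0.84. Of the 125 genes with a member in the 7 proliferation lists, 2 had an Rb region, CDT1 and POLD3. The share over all 9014 promoters, 2.16%, counts peaks and not genes. Per the study, the regions were called at a limit on the unadjusted p. The study reports that many cell-cycle genes with deactivated promoters gained Rb binding, from signal near such genes. A list of positions cannot check that signal.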

How the data were processed

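ChIP-seq reads from EndoC-βH3 cells were, per the study's methods, trimmed with Trim Galore and aligned to hg38 with Bowtie2 by the authors. H3K27ac peaks were called with HOMER and CTCF peaks with MACS2, each against input, and Rb regions with MACS2 using non-senescent libraries as control. Tool versions and the merging of replicates are not given in the sources used here. The authors' deposited tables hold DESeq2 results from 3 against 3 libraries. The deposited signal is the mean of size-factor-normalized read counts over libraries. The deposited fold change sets senescent over non-senescent cells in log2 units. The authors' standard error and Wald score accompany it. The p-value used is the deposited Benjamini-Hochberg adjusted one. These comparison columns are all the tables hold besides the mean, so they were taken as the data, and no model was refitted, although a fit on counts had been planned. Depth per library is not given there, and precision is that of the deposited standard errors. Region lists hold positions alone.

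Peaks, regions and GENCODE 44 start sites were overlapped by at least 1 bp with Python 3.11.15 and pandas 2.3.3. All 24 chromosome names matched hg38, and 0 regions ended beyond their chromosome. A level per state was computed so that both states average to the deposited mean and differ by the deposited fold. GC content and CpG ratio came from the central 1 kb of each peak. Overlap and the threshold test were tested on simulated data. Motif words of 10 or more letters were not searched.

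Genes were named by the nearest protein-coding start. Named were the 10 gained and 10 lost members of smallest adjusted p, up to 4 genes a list (the called ones of smallest adjusted p, otherwise those of largest change), 3 gained and 3 lost CTCF peaks and 5 members with an Rb region. Further genes named from the lists, the largest folds, the genes with opposite changes and the CTCF losses at BLM, ATF3 and PCSK1 were chosen after their values were seen. The promoters printed as sequence were picked from the named genes, the lost ones because they hold marked words. The members and all gene lists were chosen with earlier results of these data known. Peaks and genes are not replicates, and shares and correlations over them are descriptions without a test. Alternatives varied the fold, the test, the count minimum, the window, the GC measure, the divergent distance and the overlap.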

Additional observations from a re-analysis of the deposited data

How the results depend on the processing

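At a fold change above 2, 58 members were gained and 432 lost, so that losses were 88.2% of changes. Without a limit on the fold, 1851 were higher and 1857 lower (50.1% losses), and a test against a fold change of 1.5 left 42 and 239. A central GC of at least 60% left 157 gained members of 5752. Of CTCF peaks at members, an adjusted p below 0.05 left 5 gains and 55 losses, which were 3 and 53 at a fold change above 2, and 9 and 104 with a mean count of at least 50. In an alternative chosen after seeing the data, the 78 lost genes of the proliferation lists became 45 at a fold change above 2 and 45 under the test against a fold change of 1.5, and the 8 gained p53 targets and CDK inhibitors became 4 and 3, or 14 without a limit on the fold. Fewer peaks enter under the stricter thresholds and filters by construction. The remaining alternatives kept the counts of H3K27ac gains and losses, CTCF gains and losses and Rb regions within 1.5 times the reported ones. The median H3K27ac log2 fold change of the members ran from -0.015 (GC of the whole peak) to 0.026 (mean count of at least 50).

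No paired analysis was possible because the tables give 1 fold change per peak and no values per library. Leaving out single replicates and the fit with a replicate block were not run for the same reason. Size factors, library outliers and depth could not be examined. Weak peaks carry the largest errors, so folds at mean counts under 50 are the least precise.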
